A study of Zea mays with 16 samples.

Results

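Guard cells, the cells that swell and shrink to open and close each pore of the leaf surface, were compared between day and night in maize. The comparison uses 8 of the 16 libraries of the study, chosen by their labels: 4 libraries of guard cells collected by day and 4 collected by night. The other 8 libraries hold subsidiary cells, which flank the guard cells in grasses, again 4 by day and 4 by night. The titles of the 4 subsidiary night samples read Dayst where the guard cell titles give the time, and these samples were placed by their treatment label, Night, and the N of their library names. All plants were of the inbred line B104, and the labels name no transgene, mutation or treatment beyond the time of collection. Epidermal strips came from leaf number 3 of seedlings 2 weeks old, grown with 16 h of light at 25 °C and 8 h of dark at 22 °C. Day samples were taken 2 h after lights on and night samples 2 h after lights off, in 4 independent collections. Each sample pooled 2 tubes of about 1500 laser-cut cells, and the number of plants behind a tube is not given in the sources used here. Day and night samples differed in lighting, in temperature and in clock time at once, and the parts of these 3 in any difference cannot be told apart.

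Guard cells open the pore by taking up potassium and anions, with proton pumps supplying the driving force and water following partly through aquaporins. In grasses the dumbbell-shaped guard cells exchange ions with their subsidiary cells, which swell when the guard cells shrink. Guard cells of most plants carry chloroplasts. Genes of light harvesting, of photoperiod and of the circadian clock are known in leaves for strong daily rhythms.

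The guard cell libraries held 18.5 to 23.6 M reads by day and 17.6 to 22.8 M by night (M, 1e6 reads), and between 35905 and 37363 genes had at least 1 read. None of 6 measures of depth, detection or likeness between libraries passed a test between day and night (exact permutation test, 2-sided, 4 against 4 libraries, smallest p = 0.2 where 0.0286 is the smallest possible). Night replicate 4 stood apart: its mean rank correlation with the other 15 libraries was 0.648, against 0.713 to 0.762 for the other 7 guard cell libraries. The deposited description of a gene holds only its first word, and 7467 of the 37759 genes tested (19.8%) have one, so genes are named below by identifier and that word. Defining guard cell genes such as an anion channel of the SLAC type, MYB60 or the kinase OST1 could not be told from these words, and the cell type label was therefore not checked against them. Values are the deposited normalized counts, given in the order of replicates 1 to 4. Differences are day minus night on the scale of log2(normalized count + 1), with the SE after the ± sign. In bulk samples, fewer cells of a type and less RNA per cell cannot be told apart.

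More genes were called higher by day than higher by night. Of 37759 genes tested, 282 (0.747%) were called higher by day and 45 (0.119%) higher by night (limma on log2 of the normalized count plus 1, Benjamini-Hochberg adjusted p under 0.05). Together they are 327 genes, or 0.866%. Genes called higher by day had a median group mean of 1611 normalized counts by day and 214 by night. Genes called higher by night had 549 by night and 52.1 by day. The 4 day libraries did not overlap the 4 night libraries in 278 of the 282 and in 37 of the 45. Over all genes tested, groups did not overlap in 1317 genes (3.49%) with day higher and 838 (2.22%) with night higher, together 2155 (5.71%), and the median difference was -0.01. An unadjusted p under 0.05 was found for 3802 genes (10.1%), 2178 higher by day and 1624 higher by night. These are the counts to set beside the unadjusted counts of the lists below. A description was present for 75 of the 282 and 9 of the 45. Of the 7467 tested genes with a description, 1.12% were called in either direction, the share to set beside the list counts below. The count higher by day was 151 without day replicate 1 and 160 without day replicate 3. The count higher by night was 106 without night replicate 4, with 37 of these among the 45, and 18 without night replicate 2 or night replicate 3, 22 without day replicate 3, 27 without day replicate 4 and 23 without night replicate 1.

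**Figure D1:**
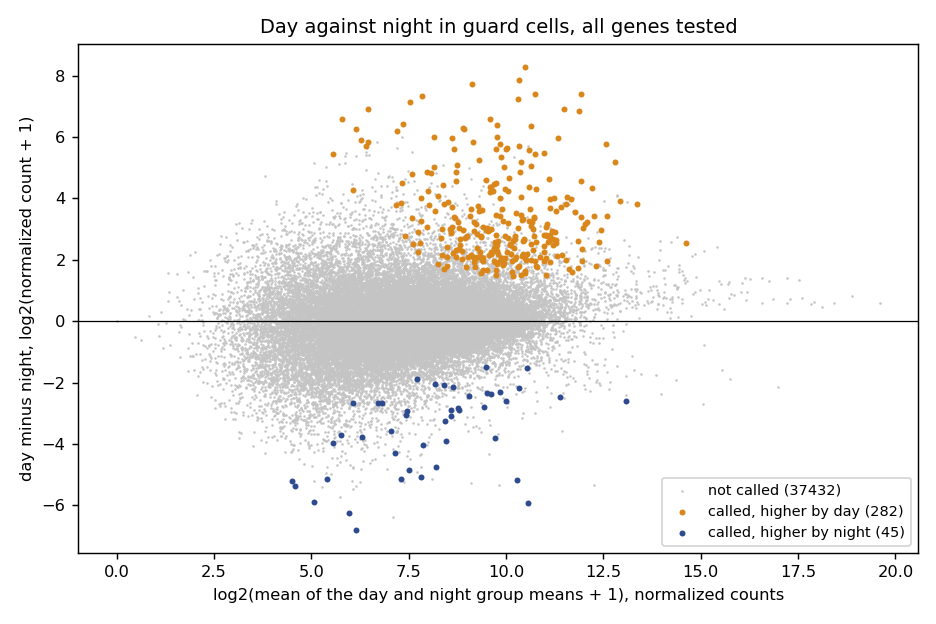
Day minus night in guard cells on the log2(normalized count + 1) scale (vertical axis) against log2 of the mean level (horizontal axis) for the 37759 genes tested, 1 point a gene. The 282 genes called higher by day (orange) outnumber the 45 called higher by night (blue), and the called genes on the day side reach 8.28.

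Genes whose description begins with Chlorophyll, the opening word of the chlorophyll a-b binding proteins of the light-harvesting antennae, held the highest share of called genes among the 37 lists. Of 30 such genes, 11 were called higher by day and none was called higher by night, against 0.747% of all genes tested in the day direction. The median difference of the 30 was 3.86 and 27 lay above 0. Their summed share of all reads was 0.288, 0.130, 0.277 and 0.186% in day libraries 1 to 4 and 0.05, 0.0181, 0.0152 and 0.0101% in night libraries 1 to 4. No night library reached the lowest day library. The median difference was 3.03 without night replicate 4, and the number called was 8 to 13 when any 1 of the 16 libraries was left out.

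Zm00001d039040, chosen after its values were seen, had 13729, 10813, 13795 and 9033 normalized counts in day libraries 1 to 4 and 473, 287, 290.3 and 49.8 in night libraries 1 to 4. The lowest day library was far above the highest night library, a difference of 5.78 ± 0.84 (SE) on the log2 scale (adjusted p = 0.0012). Zm00001d009589 had 4703, 1553, 3658 and 1443 by day and 31.3, 0, 6.48 and 16.3 by night. It had few reads in any night library and none in night replicate 2, and its log2 difference of 8.28 ± 1.06 was the largest among the 327 called genes (adjusted p = 0.000376). Zm00001d021784 had 4598, 3146, 4055 and 4066 by day and 113, 132, 70.0 and 54.0 by night, with little spread by day, and a difference of 5.48 ± 0.45 (adjusted p = 3.18e-06).

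Zm00001d033132 and Zm00001d033136 gave nearly the same values in each library: 3324, 1601, 2056 and 1036 by day for the first and 3275, 1729.8, 2034 and 1041 for the second. By night they had 178, 23.4, 20.7 and 19.7 and 156, 16.7, 25.9 and 24.0. Night replicate 1 was the highest night library in both, and reads could have been shared between them, so they are uncertain as separate genes. Their differences were 5.61 ± 0.78 and 5.65 ± 0.79 (adjusted p = 0.000788 for each). Night replicate 1 was also high in Zm00001d015385, with 269.9, 62.4, 59.6 and 49.8 by night against 2937, 1998, 2489.8 and 2661 by day (4.87 ± 0.70, adjusted p = 0.00104). Zm00001d006587 had 994, 244, 1544 and 523 by day and 32.0, 4.45, 41.5 and 18.9 by night (5.08 ± 0.82, adjusted p = 0.00348). Its groups did not overlap. Zm00001d050403 spanned 2207, 108, 1281 and 1366 by day and 6.86, 12.2, 54.4 and 34.3 by night, with day replicate 2 close to the night range (5.25 ± 0.95, adjusted p = 0.00877).

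The other 3 called genes described with Chlorophyll lost their call when single libraries were left out. Zm00001d046786 had 4243, 1298, 6051 and 4962 by day and 929, 73.5, 289 and 130.4 by night (3.98 ± 0.75, adjusted p = 0.0115), and lost its call without day replicate 3 (adjusted p = 0.055). Zm00001d007267 had 1752, 479, 1472 and 600.4 by day and 186, 0, 54.4 and 6.01 by night (5.82 ± 1.20, adjusted p = 0.021). Its call was lost without day replicate 1, day replicate 3 or night replicate 4 (adjusted p = 0.0584 to 0.0809). Zm00001d011285 had 1773, 2697, 1985 and 1619 by day and 1364, 67.9, 92.0 and 100.4 by night, where night replicate 1 lay just below the day libraries (3.52 ± 0.81, adjusted p = 0.045), and 11 of the 16 single-library omissions ended its call (adjusted p = 0.0566 to 0.131). These 3 and Zm00001d015385, Zm00001d039040, Zm00001d006587 and Zm00001d050403 were chosen after their values were seen. The 19 genes not called ran from -2.58 to 5.53 in their differences.

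**Figure D2:**
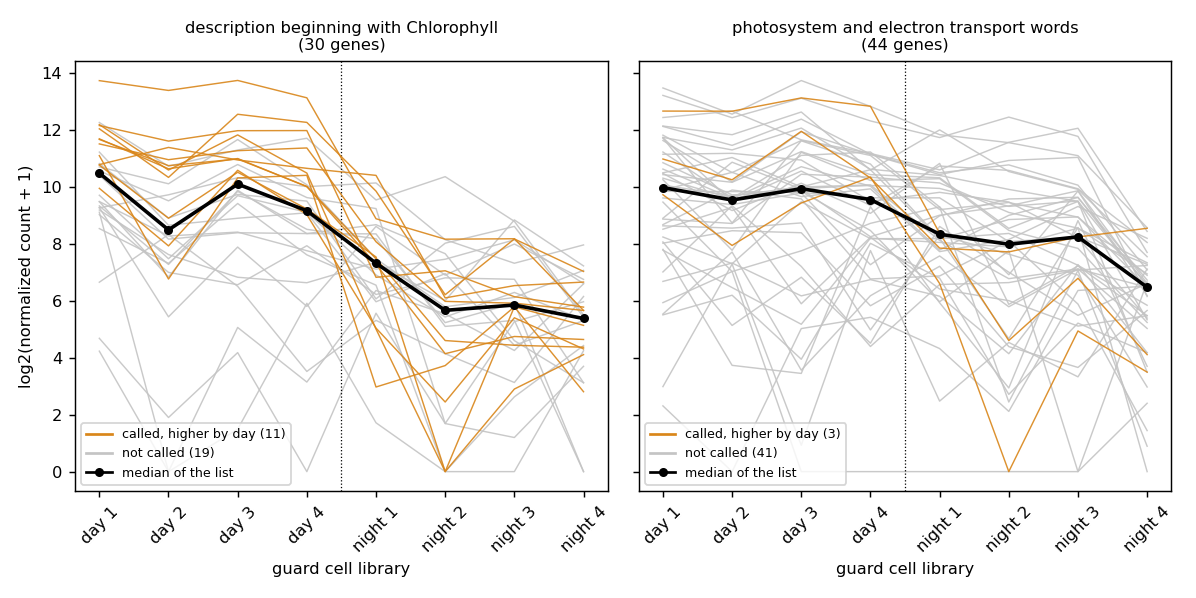
Levels, as log2(normalized count + 1), of the 30 genes described with Chlorophyll (left) and the 44 genes described with photosystem and electron transport words (right) in each of the 8 guard cell libraries. Each line joins the values of 1 gene, orange where the gene was called higher by day, and the black line is the median over the list. The left median is higher in each of the 4 day libraries than in any night library, and night replicate 4 has the lowest median in both panels.

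Genes of photosystems, plastocyanin, ferredoxin, the oxygen-evolving complex and PGR5 leaned the same way with fewer calls. Of 44 genes, 3 were called higher by day and none higher by night. Their median difference was 1.85 (1.21 without night replicate 4), 40 lay above 0, and their share of reads was 0.232 to 0.458% by day and 0.0267 to 0.195% by night. Zm00001d018797, described as Photosystem, had 6539, 6521, 9009 and 7356 by day and 332, 23.4, 110.1 and 16.3 by night. Day and night libraries were far apart (6.86 ± 0.66, adjusted p = 1.75e-05). Zm00001d034283, another Photosystem gene, had 2032, 1224, 3993 and 1279 by day and 231, 210.4, 303 and 375 by night (2.79 ± 0.60, adjusted p = 0.0271). PGR5, Zm00001d031850, whose Arabidopsis counterpart acts in cyclic electron flow around photosystem I, had 851, 247, 695 and 1308 by day and 96.8, 0, 29.8 and 10.3 by night (5.61 ± 1.31, adjusted p = 0.049). The call of Zm00001d034283 was lost without day replicate 1 or 3 or night replicate 1, 2 or 3 (adjusted p = 0.0617 to 0.115), and that of PGR5 in 12 of 16 single-library omissions, every guard cell library except night replicate 1 among them (adjusted p = 0.0515 to 0.143). Without day replicate 1, day replicate 3, night replicate 2 or night replicate 3 the list held 1 called gene. An uncalled Photosystem gene, Zm00001d049387, had 11485, 6069, 13758 and 7327 by day and 3679, 3029.6, 2206 and 380.0 by night (adjusted p = 0.0591).

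Among 34 genes named for enzymes that the Calvin cycle uses, 3 were called higher by day and none higher by night, with a median difference of 0.99. Zm00001d027488, described with Glyceraldehyde-3-phosphate, the word that opens the name of the dehydrogenase of the cycle and of its glycolytic relative, had 12651, 3349, 4976 and 6515 by day and 636, 734, 2120.0 and 109.8 by night. Its groups did not overlap, and day replicate 1 was the highest by far (3.40 ± 0.66, adjusted p = 0.0133). Zm00001d003429, with the same word, had 4672, 2645, 3499.6 and 5359.8 by day and 2376, 527, 439 and 128 by night (2.92 ± 0.64, adjusted p = 0.035). Zm00001d023559, Fructose-bisphosphate, a word shared by aldolase and the bisphosphatase, had 2153, 1086, 6251 and 792 by day and 261, 296, 156 and 90.9 by night (3.33 ± 0.73, adjusted p = 0.0315). Without day replicate 1 none of the 3 stayed called (adjusted p = 0.065 for Zm00001d027488). The list held 1 called gene without day replicate 3 or without night replicate 4. Other single omissions that ended calls were day replicate 4 and night replicates 2 and 3 for Zm00001d003429 (adjusted p = 0.068 to 0.104 over all its losses) and night replicates 1 and 3 for Zm00001d023559 (adjusted p = 0.0525 to 0.129). Zm00001d008619, Triose, had 3080.3, 1024, 1489.9 and 1483 by day and 389.6, 899, 597 and 178 by night and was not called (adjusted p = 0.0696).

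None of 12 chlorophyll synthesis genes was called in either direction, with 2 at an unadjusted p under 0.05 (2 higher by day) and a median difference of 0.36. This median was 0.06 without night replicate 4 and 0.18 without day replicate 3. In this list Zm00001d014715, Delta-aminolevulinic, whose word opens the name of an early enzyme of the pathway, had 1454, 1923, 1912 and 31758 by day and 1275, 331, 1186 and 415 by night. Day replicate 4 was far above the other 7 guard cell libraries (adjusted p = 0.227). None of 174 organelle-encoded genes was called, and their median difference was 0.21. At an unadjusted p under 0.05, 11 were higher by day and 4 higher by night, beside 2178 and 1624 of all 37759 genes tested. DESeq2 on the same reads called 1 of these organelle genes in each direction and none of the synthesis genes, and edgeR called none in either list. Without day replicate 1 limma called 1 organelle gene higher by day, and without day replicate 3 it called 1 higher by night. The organelle median was 0.12 without night replicate 4 and 0.11 without night replicate 1, and 0.41 without day replicate 3 and 0.36 without night replicate 3.

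The summed level of 6 genes with words taken as leaf mesophyll markers was also higher by day. These genes, with the words Carbonic or Phosphoenolpyruvate, summed to 0.0285 to 0.0481% of reads by day and 0.00751 to 0.0216% by night. The words open the names of the first enzymes of C4 carbon fixation but do not mark mesophyll alone. Phosphoenolpyruvate also opens the name of a carboxykinase, a bundle sheath enzyme. None was at 0 in any guard cell library, none was called, and 5 lay above 0. Zm00001d005920, Carbonic, had 1963, 1222, 715 and 1546 by day and 152, 225, 53.1 and 211 by night (adjusted p = 0.0992), and Zm00001d044096, Carbonic, had 5429.7, 4799, 2649 and 3117 by day and 1401, 1839, 1412 and 288 by night (adjusted p = 0.16). Both were higher in every day library than in any night library. The 15 genes with bundle sheath words, which include ribulose bisphosphate carboxylase words also counted in the Calvin cycle list, summed to 0.0533 to 0.157% by day and 0.0284 to 0.0850% by night, with 0 called. The 17 genes with vascular words summed to 0.0162 to 0.0259% by day and 0.0108 to 0.0506% by night, also with 0 called. DESeq2 called 1 of the 6 mesophyll genes, higher by day, and none of the bundle sheath or vascular genes, and edgeR called none in the 3 lists. Limma called 1 mesophyll gene, higher by day, in a fit to the guard cell libraries alone. Limma also called 1, higher by day, without subsidiary day replicate 1, and 1 without both libraries of lowest correlation. At an unadjusted p under 0.05 the counts were 2, 1 and 0, all higher by day. The part of other leaf cells in the photosynthesis differences was not tested.

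Photoperiod names followed. Of 18 genes with clock, CONSTANS-like and CCT words, 2 were called higher by day, none was called higher by night, and 13 lay above 0. Zm00001d046925, C2C2-CO-like, a word for zinc finger proteins related to the Arabidopsis flowering regulator CONSTANS, had 10867, 4332, 8211 and 7377 by day and 986, 1112, 1562 and 222 by night. The lowest day library was well above the highest night library (3.22 ± 0.48, adjusted p = 0.00166). Zm00001d045735, Constans1, had 2648, 1092, 1009.8 and 1548 by day and 371, 379, 379.7 and 269 by night (2.07 ± 0.44, adjusted p = 0.0271), and lost its call without day replicate 1 or 4 or any 1 night library (adjusted p = 0.0529 to 0.111), so that the list then held 1 call. A second C2C2-CO-like gene, Zm00001d051684, had 10155, 5843, 9511 and 7264 by day and 3039.5, 4466, 5093 and 1012 by night and was not called (adjusted p = 0.179). Zm00001d047761, whose word PseuodARR-B is spelled so in the file, had 1859, 1690.1, 1348 and 1182 by day and 659, 1158, 1089 and 838 by night (adjusted p = 0.541). Outside the list, Zm00001d015434, B-box, a word for zinc finger proteins that include light-signalling factors, had 333, 442, 221 and 275 by day and 35.8, 0, 0 and 3.43 by night. This gene, chosen after its values were seen, was almost without reads in 3 of 4 night libraries (6.43 ± 1.11, adjusted p = 0.00572), and edgeR on recovered reads did not call it (adjusted p = 0.0898). Zm00001d010752, Phosphatidylethanolamine-binding, of the protein family of the Arabidopsis florigen FT, was also chosen so and had 3276, 252, 259 and 413 by day and 13.7, 74.6, 47.9 and 66.1 by night (3.64 ± 0.74, adjusted p = 0.0201). Day replicate 1 was far above the other day libraries, and the call was lost without it or without night replicate 1 (adjusted p = 0.0693 to 0.078).

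Of 6 phytochrome and cryptochrome genes none was called by limma, edgeR or DESeq2, and none had an unadjusted p under 0.05 in limma. Zm00001d050850, Cryptochrome, had 1802, 3798, 2687 and 335787 by day and 1690.2, 2382, 4907 and 394 by night. Day replicate 4 alone was raised, and took the list to 1.65% of all reads of that library against 0.0243% in the lowest day library.

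Among genes for water and ion movement, aquaporins gave the most calls: 4 of 22 were higher by day, none higher by night, with a median difference of 1.05 and 17 above 0. The summed share of reads of the list was 0.0439 to 0.0994% by day and 0.0151 to 0.0663% by night, and these ranges overlap. Zm00001d005421, Aquaporin, had 2741, 1048, 1972 and 2461 by day and 251, 69.0, 27.2 and 66.1 by night, with a wide gap between the groups (4.67 ± 0.54, adjusted p = 0.000146). Zm00001d051174 had 403, 778, 1396 and 631 by day and 15.2, 59.0, 45.4 and 18.0 by night (4.58 ± 0.77, adjusted p = 0.00492). Zm00001d003006 had 1607, 948, 2875 and 610.0 by day and 18.3, 1.11, 16.8 and 43.8 by night (6.57 ± 1.39, adjusted p = 0.0255). No night library of these 3 aquaporins reached its lowest day library. Zm00001d051872 had 2155, 156, 823 and 1556 by day and 48.8, 65.7, 88.1 and 42.0 by night, with day replicate 2 near the night range (3.76 ± 0.87, adjusted p = 0.0448). The calls of Zm00001d003006 and Zm00001d051872 were lost in 6 and 11 of the 16 single-library omissions (adjusted p = 0.0524 to 0.097 and 0.0566 to 0.166), and the list held 2 calls without day replicate 1, day replicate 3, night replicate 1, night replicate 2 or night replicate 3.

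Of 31 potassium transport genes 1 was called higher by day and none higher by night, with a median difference of 0.12 on the deposited scale and -0.10 after quantile normalization. The median ran from -0.06 without day replicate 2 to 0.26 without night replicate 4, and was also below 0 without day replicate 4 or night replicate 1. Without subsidiary day replicate 1 it held 2 calls. The called gene, Zm00001d044717, had 13681, 3764, 5949 and 5647 by day and 711, 836, 929 and 712 by night. The lowest day library was several times the highest night library (3.02 ± 0.42, adjusted p = 0.000739). Zm00001d017925, also Potassium, had 38863, 15995, 3750.0 and 5446 by day and 2834, 1589, 3107 and 1048 by night, with no overlap but a wide day range, and was not called (adjusted p = 0.104). Zm00001d036784, Potassium, lay the other way, with 186, 144, 21.7 and 48.9 by day and 623, 431, 140.0 and 348 by night (adjusted p = 0.22).

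Proton pumps gave 1 call among 34 genes. Zm00001d050214, Plasma, the opening word of the plasma membrane ATPases, had 3259, 3829, 1509 and 2358 by day and 1038, 1003, 659.6 and 426 by night (1.81 ± 0.39, adjusted p = 0.0303). It lost its call without day replicate 1, 2 or 4 or night replicate 3 or 4 (adjusted p = 0.0673 to 0.108), and the list then held 0 calls. Zm00001d028436, V-type, for the vacuolar pump, had 2493, 2854, 1669 and 2062 by day and 1259, 1169, 757 and 449.5 by night and was not called (adjusted p = 0.0691). None of 10 anion and nitrate transport genes and none of 29 sugar transporters was called by limma, DESeq2 or edgeR, with 0 and 2 at an unadjusted p under 0.05 in limma.

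Of 43 starch turnover genes none was called, 5 were higher by day at an unadjusted p under 0.05, and DESeq2 and edgeR also called none. Without night replicate 2 limma called 1 higher by day. Zm00001d027619, Beta-amylase, an enzyme of starch breakdown, had 13942, 9432, 9092 and 8974 by day and 2499, 7630.1, 6933 and 1386 by night (adjusted p = 0.19). Night replicates 2 and 3 were nearest to the day range. Zm00001d053331, Ae1, a starch branching enzyme known from the amylose extender mutants, had 333, 430.1, 347 and 222 by day and 0, 200.4, 55.7 and 9.44 by night (adjusted p = 0.074). None of 15 trehalose genes was called by limma, DESeq2 or edgeR, with 1 at an unadjusted p under 0.05.

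In the list of abscisic acid words and type 2C phosphatases, a class whose clade A members are negative regulators of abscisic acid signalling in Arabidopsis guard cells, 1 of 31 genes was called. Zm00001d009626, 2C-type, had 4377, 2161, 2738 and 2260.0 by day and 441, 414, 199.6 and 63.5 by night. Its lowest day library was several times its highest night library (3.65 ± 0.56, adjusted p = 0.00194). Zm00001d014291, with the same word, had 235, 344, 162 and 227 by day and 836, 728, 1266 and 328 by night and was not called (adjusted p = 0.163). Its groups overlapped. Of 38 wax and fatty acid synthesis genes 1 was called: Zm00001d032728, 3-ketoacyl-CoA, the word of the condensing enzymes that lengthen fatty acids for waxes, had 4634, 2623, 4608 and 3242 by day and 1056, 807, 691 and 132 by night (2.79 ± 0.47, adjusted p = 0.00468). A fit to the 8 guard cell libraries alone did not call it (adjusted p = 0.066), and without night replicate 4 a second gene of the list was called, higher by night. Of 156 cell wall genes 1 was called, Zm00001d036158, Pectate, of the pectate lyases, with 1217, 848, 1408 and 1486 by day and 138, 415, 665 and 124 by night (2.20 ± 0.51, adjusted p = 0.0448). It was lost in 12 of 16 single-library omissions, among them each day library and night replicates 1 and 4 (adjusted p = 0.0518 to 0.134), and so 0 to 1 cell wall genes were called. The 0.641% called in the cell wall list is below the 0.866% of all genes tested and the 1.12% of genes with a description.

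Peroxidases and glutathione transferases, which act in detoxification and the oxidation of wall phenolics, gave 3 calls among 175 genes tested. This is 1.71%, beside 1.12% of genes with a description and 0.866% of all genes tested. Zm00001d042104, GST7, had 17421, 11866, 15451 and 12489 by day and 778, 932, 381 and 2778 by night. Night replicate 4 was the highest night library and still far below every day library (3.91 ± 0.49, adjusted p = 0.000295). Zm00001d005279, Peroxidase, had 952, 164, 757 and 701 by day and 29.7, 11.1, 40.2 and 23.2 by night (4.45 ± 0.73, adjusted p = 0.00387). Zm00001d024839, Glutathione, had 1637, 1335, 1852 and 1798 by day and 19.1, 215, 36.3 and 6.86 by night (5.61 ± 1.12, adjusted p = 0.0171). The day values of this last gene were close to each other, and its call was lost without day replicate 1, 3 or 4 or night replicate 1 or 4 (adjusted p = 0.0524 to 0.0578). The whole list took 1.27 to 1.73% of reads by day and 0.305 to 2.36% by night, and these ranges overlap. The lowest night share was that of night replicate 4, and night replicates 1 to 3 were at 1.35, 1.73 and 2.36%.

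Several of the described genes of smallest p on the day side belonged to none of these lists. Zm00001d049543, described only as Putative, had 14493, 11784, 15957 and 13212 by day and 226, 431, 424 and 509.6 by night. Night levels were a small part of day levels in every library (5.17 ± 0.41, adjusted p = 2.42e-06). Zm00001d020771, Glucose-6-phosphate, a word shared by a dehydrogenase, an isomerase and a plastid translocator, had 8667, 4792, 8049.7 and 4332 by day and 500.1, 668, 578 and 390.3 by night (3.55 ± 0.38, adjusted p = 5.83e-05). Zm00001d005146, PVR3-like, had 1282, 755, 913 and 1494 by day and 1.52, 4.45, 7.78 and 4.29 by night. It was close to silent in all 4 night libraries (7.74 ± 0.86, adjusted p = 8.09e-05).

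Zm00001d016269, Putative, had 5104, 2480.3, 4674 and 1369 by day and 63.3, 3.34, 28.5 and 11.2 by night, again without overlap (7.40 ± 0.89, adjusted p = 0.000204). Zm00001d006184, Leaf, had 2555, 1685, 1479 and 1741 by day and 463, 313, 193 and 371 by night (2.51 ± 0.33, adjusted p = 0.000517). Zm00001d000428, Transmembrane, had 1682, 1759.9, 1691 and 1716 by day and 64.8, 267, 148 and 371 by night (3.28 ± 0.44, adjusted p = 0.00059). Its 4 day values were nearly equal, while its night values differed several-fold. Zm00001d022271, Dirigent, of a protein family that guides the coupling of phenolic radicals, had 2308, 1163, 2334 and 1749.6 by day and 239, 32.3, 63.5 and 18.9 by night (5.01 ± 0.70, adjusted p = 0.000788). All 15 described genes of smallest p on the day side kept their call in each of the 16 single-library omissions.

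No description was given for the gene of smallest p of all. Zm00001d013869 had 4901, 5325, 5284 and 4953 by day and 153, 24.5, 128 and 89.2 by night, with little spread by day (5.96 ± 0.45, adjusted p = 1.78e-06). Zm00001d014756, also without description, had 4585, 3525, 4666 and 4141 by day and 85.4, 177, 227 and 245 by night (4.62 ± 0.40, adjusted p = 6.56e-06). Neither gene had a night library near its day range.

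**Figure D3:**
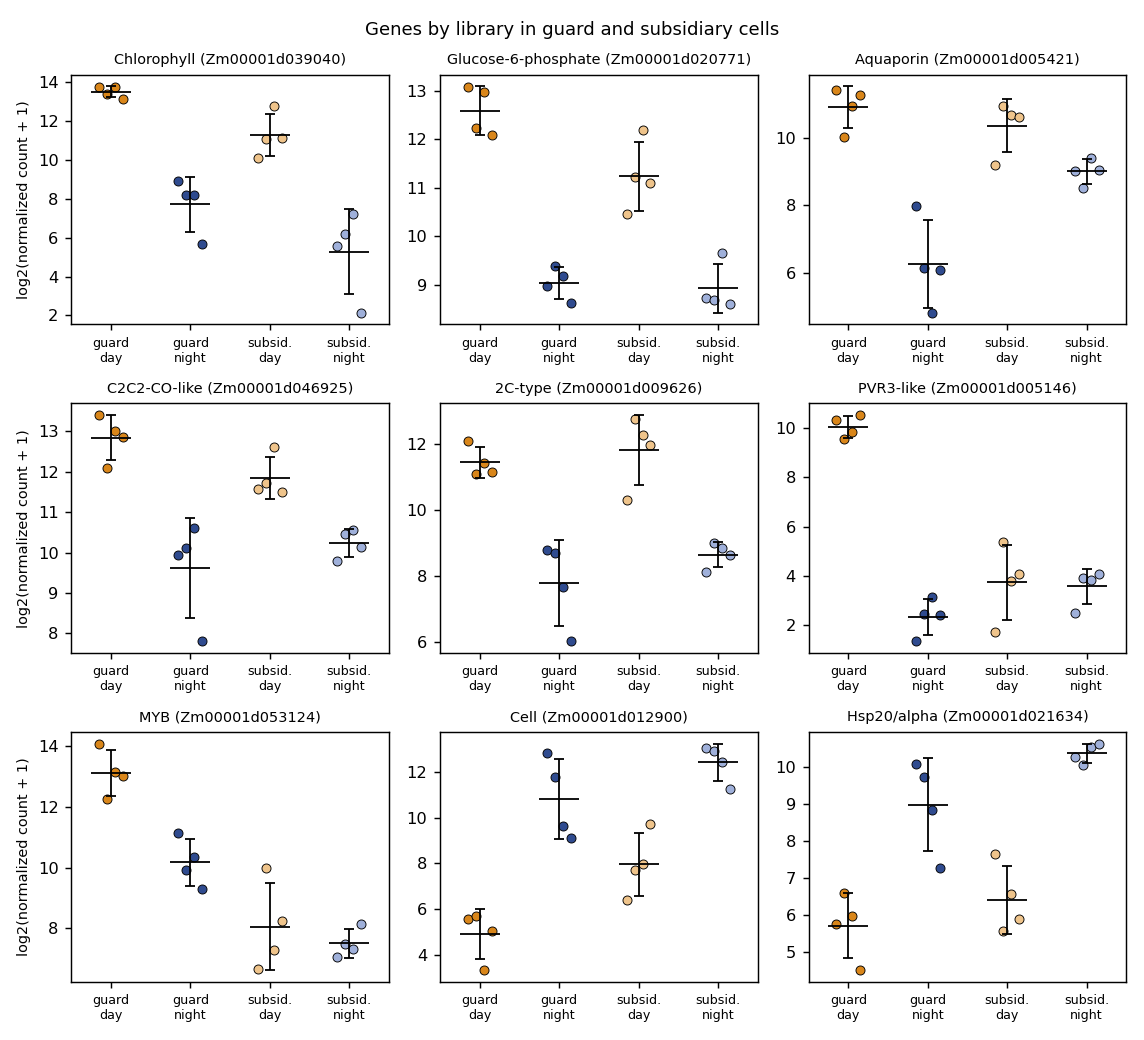
Levels of 9 genes, as log2(normalized count + 1), in each of the 16 libraries, set out by cell type and time of collection, with the mean and SD on that scale (n = 4). The first 7 genes are higher by day in guard cells and the last 2 (Cell and Hsp20/alpha) higher by night, with no overlap between day and night guard cell libraries; PVR3-like is high only in the guard cell day libraries among those plotted.

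Among regulators, calls were near the share of all genes with a description, 1.12%. They were 1.32% of the MYB list, 1.11% of the ethylene and AP2 list and 1.44% of the bHLH, bZIP, WRKY and NAC list. Of 76 MYB genes 1 was called higher by day. Zm00001d053124 had 17369.7, 4854, 9109 and 8371 by day and 2238, 961, 1295 and 632 by night, with no overlap (2.96 ± 0.58, adjusted p = 0.0144). Leaving out day replicate 1 or day replicate 3 ended the call (adjusted p = 0.0516 to 0.0703). Of 90 ethylene and AP2 genes Zm00001d002760, AP2-EREBP, was called, with 465, 314, 614 and 406 by day and 85.4, 54.6, 32.4 and 43.8 by night (3.08 ± 0.59, adjusted p = 0.0121), again lost without day replicate 1 or day replicate 3 (adjusted p = 0.0503 to 0.0586). The count in that list was 0 without either of them and 2 without night replicate 1 or night replicate 4. Of 139 bHLH, bZIP, WRKY and NAC genes 2 NAC genes were called. Zm00001d034601 had 5049, 1313, 2436 and 2997 by day and 1064, 135, 119 and 259.9 by night (3.35 ± 0.77, adjusted p = 0.0446). Zm00001d049678 had 886, 894, 703 and 297 by day and 199.7, 157, 156 and 54.0 by night (2.31 ± 0.54, adjusted p = 0.049). Both NAC calls were close to the threshold and were lost in 10 and 13 of 16 single-library omissions (adjusted p = 0.0515 to 0.143 and 0.0513 to 0.151), and the list held 0 calls without day replicate 1, day replicate 3, night replicate 3, night replicate 4, subsidiary day replicate 4, subsidiary night replicate 1 or subsidiary night replicate 4.

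Of 127 auxin-named genes 2 were called (1.57%, beside 1.12% of genes with a description), both higher by day. Zm00001d049295, Auxin, had 2960.5, 1950.3, 2292 and 1825 by day and 557, 375, 710.1 and 367 by night (2.20 ± 0.35, adjusted p = 0.00287). Zm00001d041416, Auxin-responsive, had 1171, 1754, 1108 and 1161 by day and 378, 411, 601 and 265 by night (1.68 ± 0.35, adjusted p = 0.0242). The groups did not overlap in either gene, but the second lost its call without any 1 guard cell library except night replicate 3 (adjusted p = 0.052 to 0.0808). Without night replicate 1 another auxin gene was called higher by night.

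None of 118 protein kinases and none of 86 tubulin, actin and kinesin genes tested was called. The counts at an unadjusted p under 0.05 were 5 higher by day and 7 higher by night for kinases, and 6 and 2 for the cytoskeleton list. DESeq2 called 2 kinases in each direction, and 3 cytoskeleton genes by day and 1 by night, and edgeR called none. Limma called 1 kinase higher by night without day replicate 3, night replicate 4, subsidiary day replicate 2 or subsidiary day replicate 3, and 1 kinase and 1 cytoskeleton gene higher by day without subsidiary day replicate 1. Zm00001d028245, Serine/threonine-protein, was just outside the threshold, with 404, 204, 526 and 112 by day and 2184, 2246, 1124 and 564 by night (adjusted p = 0.0503). Zm00001d006790, Mitogen-activated, had 2441, 2686, 2336 and 2197 by day and 366, 934, 1164 and 646 by night (adjusted p = 0.0806). Zm00001d053102, Tubulin, had 618, 629, 636 and 302 by day and 75.5, 98.0, 64.8 and 69.5 by night (adjusted p = 0.0649). All 3 had no overlap between day and night.

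Of 23 cyclin and cell cycle genes 2 were called higher by day and 1 higher by night. Zm00001d008221, Cyclin, had 599, 488, 429 and 384 by day and 102, 83.5, 209.9 and 146 by night (1.87 ± 0.42, adjusted p = 0.039). Zm00001d010476, CDC2+/CDC28-related, a word for cyclin-dependent kinases, had 1366, 1248, 1870.5 and 1748 by day and 72.4, 80.2, 205 and 322 by night (3.45 ± 0.80, adjusted p = 0.0457). Zm00001d038881, Anaphase-promoting, of the ubiquitin ligase that drives exit from mitosis, had 53.5, 2.74, 2.71 and 10.5 by day and 87.7, 213, 156 and 98.7 by night (-3.76 ± 0.78, adjusted p = 0.0217). None of these 3 calls was stable: they were lost in 9, 12 and 4 of 16 single-library omissions (adjusted p = 0.0502 to 0.129, 0.0552 to 0.133 and 0.062 to 0.0747), including each without day replicate 2 or day replicate 3, and edgeR called none of them.

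The list of 49 heat shock and chaperone genes held calls in both directions. Zm00001d021634, Hsp20/alpha, a word for small heat shock proteins, had 53.5, 95.9, 62.4 and 21.8 by day and 1074, 847, 451 and 154 by night. Every night library exceeded every day library, night replicate 4 by the least (-3.26 ± 0.61, adjusted p = 0.0106). The fit to guard cell libraries alone did not call it (adjusted p = 0.0791). Higher by day were Zm00001d012420, Heat, with 651, 937, 2285 and 1152 by day and 400.2, 130.3, 295 and 251 by night (2.17 ± 0.45, adjusted p = 0.0232), and Zm00001d028630, Heat, with 1879.9, 1294, 4070.1 and 2373 by day and 541, 479.9, 108 and 564 by night (2.63 ± 0.60, adjusted p = 0.0446). The first lost its call without day replicate 3, day replicate 4 or night replicate 2 (adjusted p = 0.0655 to 0.102), and the second in 10 of 16 omissions, with day replicates 1, 3 and 4 and night replicates 1, 2 and 3 among them (adjusted p = 0.0562 to 0.154).

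Night-side calls with a description were few, 9 of 45. Zm00001d012900, Cell, had 46.6, 50.7, 9.04 and 32.3 by day and 7159, 3466, 799.5 and 546 by night. Night replicates 1 and 2 were several times night replicates 3 and 4, and all 4 were above every day library (-5.91 ± 0.78, adjusted p = 0.000517). Zm00001d046728, VQ, of a family of small proteins that bind WRKY factors in Arabidopsis, had 26.7, 21.9, 54.2 and 54.2 by day and 222, 386, 472 and 163 by night (-2.94 ± 0.56, adjusted p = 0.0115), and was lost without night replicate 3 (adjusted p = 0.0528). Zm00001d047998, Squalene, a word of sterol synthesis enzymes, had 88.2, 6.85, 97.6 and 15.7 by day and 1487, 477, 183 and 454 by night (-3.91 ± 0.83, adjusted p = 0.0257). It lost its call without day replicate 2 or 4 or night replicate 1, 2 or 4 (adjusted p = 0.0505 to 0.109).

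Zm00001d048198, Protein, had 4.95, 5.48, 0 and 15.7 by day and 75.5, 54.6, 145 and 64.3 by night, few reads in either group (-3.99 ± 0.86, adjusted p = 0.0283), and Zm00001d013245, UDP-glucose, had 121, 30.1, 108 and 132 by day and 1551, 441, 228 and 871 by night (-2.82 ± 0.65, adjusted p = 0.0448). The first was lost without day replicate 1 or 3 or night replicate 1 or 3 (adjusted p = 0.0659 to 0.0989) and the second in 14 of 16 omissions (adjusted p = 0.051 to 0.151). Neither gene had overlapping groups. Without a description, Zm00001d051045 had 67.4, 20.5, 15.4 and 3.50 by day and 356, 976, 636 and 268 by night (-4.77 ± 0.67, adjusted p = 0.000788), and Zm00001d045772 had 260.5, 569.7, 258 and 116 by day and 2809, 1312, 803 and 2092 by night (-2.61 ± 0.45, adjusted p = 0.00583). Both kept their call in all 16 single-library omissions, and the second was not called in the fit to guard cell libraries alone (adjusted p = 0.0629).

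Genes for cytosolic ribosomal proteins leaned to the night. Of 167, 58 lay above 0, the median difference was -0.38, 2 were called higher by night and none higher by day. The 2 called genes, Zm00001d037886 and Zm00001d037884, both 40S, had similar values in each library: 216, 46.6, 106 and 15.7 and 255, 50.7, 143 and 16.6 by day, 926, 966, 608 and 171 and 861, 923, 644 and 195 by night. In both, night replicate 4 lay within the day range. Reads could have been shared between them, so they are uncertain as separate genes. Their differences were -3.08 ± 0.65 (adjusted p = 0.024) and -2.89 ± 0.65 (adjusted p = 0.0403). Omitting day replicate 2, day replicate 4, night replicate 1, night replicate 2 or night replicate 3 ended both calls (adjusted p = 0.0678 to 0.0892 for the first), and the second was lost in 12 of 16 omissions in all (adjusted p = 0.0517 to 0.121). Zm00001d050921, 60S, had 91.1, 0, 11.8 and 0 by day and 762, 245, 124 and 99.5 by night and was not called (adjusted p = 0.094). The share of reads of the list was 0.126 to 0.274% by day and 0.196 to 0.406% by night, and these ranges overlap. The median stayed below 0 in each single-library omission, from -0.66 without night replicate 4 to -0.18 without night replicate 2, and was -0.19 without day replicate 2 and -0.23 without day replicate 3.

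No call was made among 90 histone genes (median difference -0.31, and 4 higher by day and 6 higher by night at an unadjusted p under 0.05), 27 plastid-type ribosomal protein genes (0 and 2), 68 translation factor genes (6 and 4), 33 splicing genes (0 and 3), 30 mitochondrial electron transport genes (1 and 1), 114 ubiquitin ligase and proteasome genes (2 and 5) or 17 expansin genes tested of 18 (3 and 2). edgeR called none in these lists. DESeq2 called 1 expansin gene higher by day, and 1 plastid-type ribosomal, 2 translation factor and 1 ubiquitin ligase and proteasome genes higher by night. The histone median was -0.73 without night replicate 4, -0.15 without day replicate 2, -0.05 without night replicate 2 and -0.02 without night replicate 1, and 3 histone genes were called higher by night without both libraries of lowest correlation. Limma called 1 ubiquitin ligase and proteasome gene higher by night without day replicate 2, and 1 expansin gene higher by day without subsidiary day replicate 1.

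**Figure D4:**
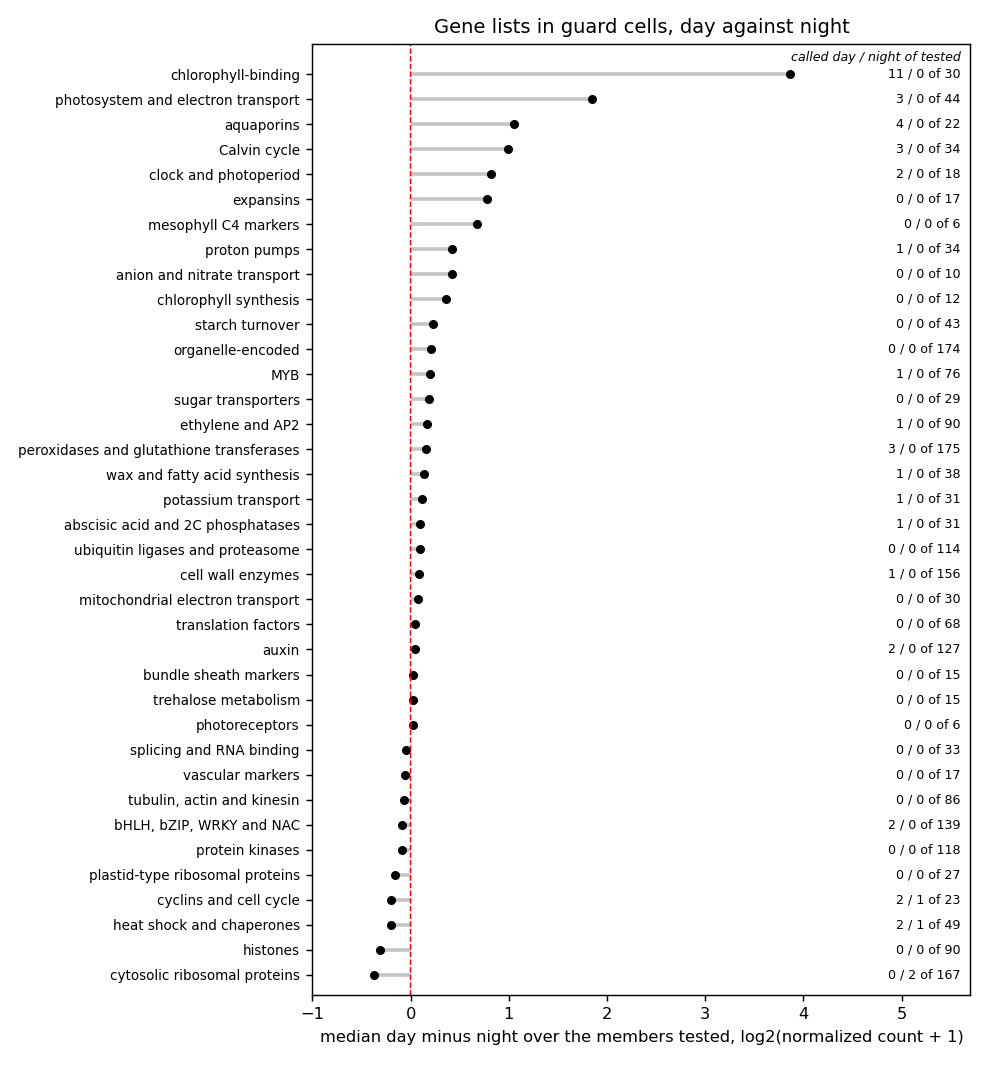
Median day minus night in guard cells over the tested members of each of the 37 gene lists (points, log2(normalized count + 1) scale), with the counts called higher by day and higher by night and the number tested at the right; the dashed line is the median over all genes tested, -0.01. The list of genes described with Chlorophyll has the highest median, 3.86, and the lowest medians, down to -0.38, lie close together and change order when single libraries are left out.

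The genes called in guard cells were set beside their differences in subsidiary cells, where 461 genes (1.22%) were called. Of the 282 called higher by day in guard cells, 249 had the same sign in subsidiary cells and 93 were also called there. The 93 are 33.0% of the guard cell list. They are 36.6% of the 254 genes called higher by day in subsidiary cells (0.673% of genes tested). Of the 45 called higher by night, 40 had the same sign and 16 were also called, 35.6% of the guard cell list and 7.73% of the 207 called higher by night in subsidiary cells (0.548% of genes tested). None was called in the opposite direction. The calls of a gene in the 2 cell types use the same estimate of its spread, from all 16 libraries, and so are not independent. The share of same signs over all genes tested was not computed, so the counts of same signs have no background beside them. In the test of the difference between the cell types no gene passed: 0 of 37759 were called by limma, 2533 (6.71%) had an unadjusted p under 0.05, and the smallest adjusted p was 0.0659. edgeR called 1 gene and DESeq2 149 in the same test. Limma called 6 without subsidiary day replicate 2, 2 without guard cell night replicate 3, and 1 without guard cell night replicate 1, guard cell night replicate 2 or subsidiary day replicate 1. Guard cell calls that were not calls in subsidiary cells are therefore not shown to differ between the cell types by the limma fit.

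**Figure D5:**
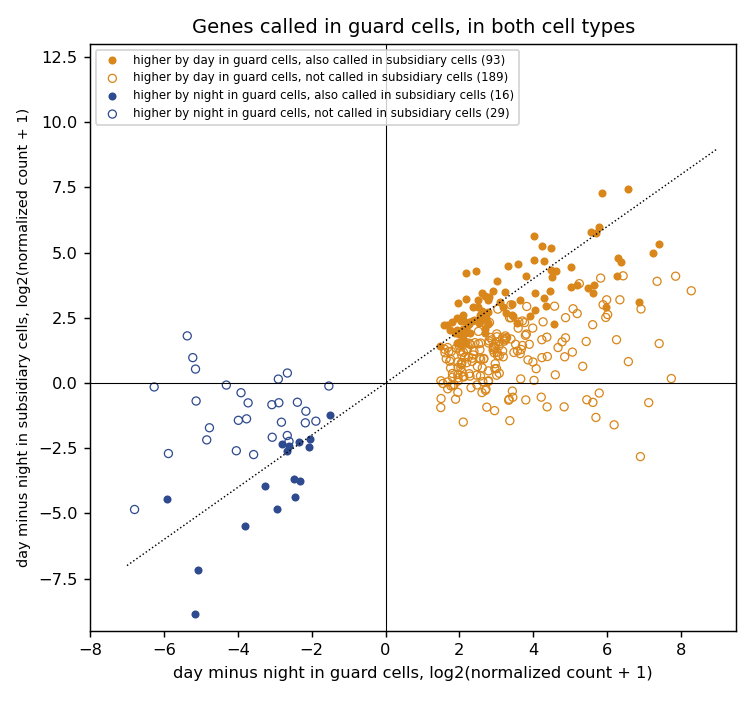
Day minus night in subsidiary cells (vertical axis) against day minus night in guard cells (horizontal axis), both on the log2(normalized count + 1) scale, for the 327 genes called in guard cells. Filled points were also called in subsidiary cells (93 and 16), open points were not, and the dotted line marks equal differences. The axes share no libraries, but the calls of both cell types share the estimate of each gene's spread.

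The 30 genes described with Chlorophyll had a median difference of 2.95 in subsidiary cells, where 5 were called higher by day, beside 3.86 and 11 in guard cells. For the 44 photosystem and electron transport genes the medians were 0.36 with 1 call in subsidiary cells and 1.85 with 3 calls in guard cells. Zm00001d039040 differed by 5.99 in subsidiary cells, with 1110.0, 2164, 6958 and 2235 by day and 46.7, 72.1, 147 and 3.42 by night, beside 5.78 in guard cells, and the test of the difference gave -0.21 ± 1.19 (adjusted p = 0.986). Zm00001d018797 had 2862, 1504, 5711 and 2685 by day and 359, 249.7, 295 and 473 by night in subsidiary cells, a difference of 3.09 (adjusted p = 0.0245). The test of the difference between cell types gave 3.77 ± 0.94 for this gene (adjusted p = 0.373).

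Zm00001d044717, the Potassium gene, was at 24366, 89624, 37663 and 44983 by day and 3184, 2785, 3829 and 2014 by night in subsidiary cells, a difference of 3.93 (adjusted p = 5.42e-05). Its levels in subsidiary cells by day were above those of every guard cell library. The difference between cell types in the day-night change was -0.91 ± 0.59 (adjusted p = 0.832). Zm00001d009626, 2C-type, also differed in both, with 1247, 6824, 4889 and 4019.8 by day and 275, 504, 454 and 393 by night in subsidiary cells (3.18, adjusted p = 0.00519). Higher by night in both cell types were Zm00001d012900, Cell (-4.46 in subsidiary cells, adjusted p = 0.00507), Zm00001d021634, Hsp20/alpha (-3.95, adjusted p = 0.00163), and Zm00001d046728, VQ (-4.85, adjusted p = 0.000113).

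The 3 genes of smallest p in the test of the difference included 1 with a description. Zm00001d005146, PVR3-like, had 2.27, 41.0, 12.9 and 15.9 by day and 4.67, 14.1, 13.1 and 15.7 by night in subsidiary cells, where day and night overlapped (0.17, adjusted p = 0.974). The difference between cell types was 7.57 ± 1.21, not past the threshold (adjusted p = 0.0659). Zm00001d038907, without description, had 1034, 616, 844 and 464 by day and 121, 136, 378 and 66.9 by night in guard cells and 12.5, 87.4, 52.8 and 39.7 by day and 456, 162, 478 and 356 by night in subsidiary cells. Day was the higher group in the first (adjusted p = 0.101, not called) and night in the second (-3.06, adjusted p = 0.0148), a difference of 5.36 ± 0.87 (adjusted p = 0.0659). Zm00001d004591, also without description, had 1394, 2219, 989.9 and 1838 and 612, 975, 1278 and 511 in guard cells by day and by night, and 185, 266, 157 and 282 and 1062, 1037, 1084 and 1366 in subsidiary cells. Its differences were 0.96 (adjusted p = 0.327) and -2.38 (adjusted p = 0.00138), 3.34 ± 0.51 apart (adjusted p = 0.0659).

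The authors' deposited table of the same contrast lists 1103 genes at an adjusted p under 0.05, 735 higher by day and 368 higher by night. Of the genes called here, 275 of the 282 and 45 of the 45 are among those in the authors' deposited table, and none has the opposite sign there.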

How the data were processed

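RNA was amplified from about 10 pg with SMART-Seq v4 and made into unstranded Nextera XT libraries without molecular identifiers, per the labels' protocols. The deposited signal values are counts per gene that the authors divided by size factors with DESeq2 (version 1.40.2, build B73 RefGen 4, per the submitters' processing notes). No source used here names an aligner or a counter. Dividing by the smallest step gave whole reads for all values within 0.01, so the totals printed are recovered reads. The authors deposited log2 fold changes and p-values of their own comparisons, also from DESeq2 per those notes, and these are used only where named. In 62 lines the columns were shifted and were moved back.

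Values were tested as log2(value + 1) with limma 3.58.1 (R 4.3.3), trend and 4 group means over 16 libraries (12 residual degrees of freedom). Genes needed a value of at least 10 in 4 libraries: 37759 were tested and 420 were not. P-values were adjusted over all genes tested. Because the values are normalized, no count test is the main result, and edgeR 4.0.16 and DESeq2 1.42.0 on recovered reads were alternatives. In data simulated for the guard cell contrast over 37759 genes, 12% of genes changed by 2 and 69% changed by 4 on the log2 scale were called, and 3 of 37559 unchanged genes. The changed genes were drawn only from those above a minimum mean level in guard cells. The simulated spread followed the trend with level, with no outlying library, so these rates need not hold for genes of low level or for the measured spread. Samples were taken in 4 independent collections, and the labels do not say whether a day and a night sample share a collection. Whether guard and subsidiary samples of the same time share a collection was not examined, and the test between cell types treats them as unpaired. P-values rest on the spread between libraries of the same group, pooled over the 4 groups of cell type and time.

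The 37 lists were built from the opening word of each description. Lists and genes were chosen with earlier results of these data known. Named genes were the 15 described genes of smallest p in each direction with a mean log2 level of at least 3 and no overlap between groups, of which fewer than 15 existed by night, the 4 of smallest p per list, 2 without description per direction and 3 of the test between cell types, and 9 further genes picked with their values in view. Of these 175 in all, 83 are reported, including every called one. The reference table of gene names matched none of the identifiers.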

Additional observations from a re-analysis of the deposited data

Results flagged for a closer look

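In groups of 4 libraries, a library was singled out where its gap to the nearest other exceeded Dixon's critical share of the range on the log2 scale. Of 174 groups examined 13 met this, and chance singles out about 1 in 20. Night replicate 1 was the high library for 3 genes described with Chlorophyll: 1364 in Zm00001d011285 (others 67.9 to 100.4), 269.9 in Zm00001d015385 (49.8 to 62.4) and 178 in Zm00001d033132 (19.7 to 23.4). Night replicate 4 was low in Zm00001d044096, Carbonic, at 288 (1401 to 1839), and in Zm00001d045735, Constans1, at 269 (371 to 379.7). Night replicate 3 was low in Zm00001d028630, Heat, at 108 (479.9 to 564).

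Day replicate 4 was high in Zm00001d050850, Cryptochrome, at 335787 (1802 to 3798), and in Zm00001d014715, Delta-aminolevulinic, at 31758 (1454 to 1923), and low in Zm00001d053102, Tubulin, at 302 (618 to 636). Day replicate 2 was low in Zm00001d013245, UDP-glucose, at 30.1 (108 to 132) and high in Zm00001d041416, Auxin-responsive, at 1754 (1108 to 1171). Day replicate 1 was high in Zm00001d027619, Beta-amylase, at 13942 (8974 to 9432). Its mean rank correlation with the other libraries, 0.755, was above that of the other day libraries (0.713 to 0.719).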

How the results depend on the processing

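The 327 calls in guard cells became 1095 with DESeq2, 196 with edgeR and 203 in a fit to guard cell libraries alone, and 182 to 384 when 1 library was left out. Those higher by day (282) became 729 with DESeq2 and 177 with edgeR, and 151 to 326 with 1 library left out. Those higher by night (45) became 366 with DESeq2, 158 without both libraries of lowest correlation, 19 with edgeR, 7 in guard cells alone and 71 with quality weights, and 18 to 106 with 1 library left out. The test between cell types (0 calls) gave 149 with DESeq2, 1 with edgeR and 4 with a pseudocount of 10, and 0 to 6 with 1 library left out. The 461 subsidiary calls became 1334 with DESeq2 and 959 with quality weights, and 235 to 643 with 1 library left out. The cause of these shifts was not tested. Leaving out a library lowers the number of samples, and the counts fell in some omissions and rose in others. TMM and upper-quartile scaling, quantile normalization and other filters on low values gave 255 to 346 calls in guard cells. Upper-quartile scaling moved the median of all genes to -0.119. Of 63 named genes that were called, 28 kept their call under every alternative run and 32 in every single-library omission, and none changed direction.

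With the replicate block, 246 genes were called in guard cells (216 higher by day, 30 higher by night), 347 in subsidiary cells and 0 between cell types. Same-numbered day and night libraries had deviations correlated at -0.0317 to 0.0794, under the 0.1 required over 4 pairs, and 1 of 4 day libraries correlated best with its own number, so the numbers were not taken to pair samples. In simulated data at this size 12% of changes of 2 on the log2 scale were called, in genes above a minimum level, which limits what an uncalled gene shows.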
